A study of Mus musculus with 75 samples.

Results

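During serial culture of mouse skin fibroblasts, 31 of 24984 genes were more highly expressed at the middle passages, P3 or P5, than at both the first (P1) and the last (P7) passage studied. They were chosen by their RNA levels in the 16 passage libraries, so these levels are described here without a test. For each gene, counts were scaled to CPM (a count divided by the library's sum and multiplied by 1000000), x = log2(CPM + 1) was averaged over the 4 libraries of each passage, and a gene was kept when the larger of its P3 and P5 means corresponded to 5 CPM or more and exceeded both the P1 and the P7 mean by 0.7 or more. Of the 24984 genes, 10441 reached 5 CPM at P3 or P5. The higher mean was at P3 for 22 of the 31 genes and at P5 for 9. The smaller of the 2 differences, from P1 or from P7, is called the margin.

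The study followed replicative senescence, the lasting arrest that primary cells enter after repeated division. The fibroblasts came from the skin of C57BL/6 mice, which were 2-month-old females for the passage series, and they were untreated. Each of the passages P1, P3, P5 and P7 had 4 RNA-seq libraries, and the same passages were assayed by ATAC-seq, which measures open chromatin, in 4 samples at P1 and 3 at every later passage. Further RNA-seq libraries came from fibroblasts of the same strain, taken from newborn or 2-month-old mice, that carried a lentivirus. E2f4, a transcription factor of the E2F family, was expressed from a doxycycline-induced vector in cells of P4 (2 libraries, against 2 libraries labelled Vector overexpression). E2f4 was knocked down with the hairpin sh1, Tead1 with sh3 or sh4, and Atf3 with sh5 or sh6 (3 libraries each), and every knockdown experiment had 3 libraries with a non-targeting hairpin. The authors describe the E2f4 knockdown in proliferating cells of P3 and the Atf3 knockdown in pre-senescent cells. Their methods give early passages for proliferating cells and a later one for senescence interventions, without saying which gene was targeted at which. That later passage differs from the P4 given in their results for the overexpression. They name no passage with the Tead1 knockdown itself, so levels in the 4 experiments may come from different stages of culture. Tead1 encodes a DNA-binding partner of YAP and TAZ, and Atf3 a stress-induced factor of the AP-1 family. Transduced cells were selected with puromycin in the knockdown experiments. The labels do not say whether replicates were separate cultures or animals, so p-values measure only the spread between these libraries, which may be technical.

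Dermal fibroblasts build the collagen and elastic fibre network of skin, and they exchange signals with neighbouring cells through adhesion proteins, secreted ligands, junctions and receptors. Gap junctions pass small molecules between neighbours, Notch ligands act by cell contact, and matrix proteins set the stiffness and the store of growth factors around the cell. Early after plating, a primary culture still holds cells of other types, and late in culture many fibroblasts have stopped dividing.

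The 16 passage libraries held 13430229 to 15725823 counts each and the 28 others 9147324 to 27552949. All 11 fibroblast markers were at 1 CPM or more on average in every group. The summed markers of macrophages, keratinocytes, skeletal muscle and endothelium were highest at P1. The summed level of 14 macrophage markers was 383 to 591 CPM at P1, 48.6 to 68.9 at P3, 23.0 to 32.6 at P5 and 33.5 to 53.7 at P7, and 13 of them reached 1 CPM at P1 against 4 at P7. Fcgr1, a macrophage Fc receptor, averaged 1.04 CPM at P1 and 0 at P3. Csf1r, another of these markers, did not stay low. Its P7 mean of 20.4 CPM was close to its P1 mean of 22.2, while the P3 mean (8.83) and the P5 mean (7.81) were lower. The 14 keratinocyte markers summed to 113 to 561 CPM at P1 and to 10.9 to 24.2 later, with Krt17 and Dsg3 at 0 in P5 and P7. The 14 skeletal muscle markers summed to 209 to 339 CPM at P1 and to 30.8 to 103 later, although Acta1 averaged 62.2 CPM at P1 and 66.4 at P7, and the 10 endothelial markers to 192 to 217 at P1 and to 8.73 to 57.4 later. Fibroblast markers summed to 28892 to 30610 CPM at P1 and to 42544 to 56753 later, but they did not move together. Fn1 averaged 3937 CPM at P1 and 17333 at P7, and Col3a1 1963 and 6808. Col1a1, Col1a2, Thy1 and Vim were also higher at P7. Dcn (1083 at P1 and 268 at P7), Lum (67.4 and 15.1) and Pdgfra (661 and 267) were lower. Pdgfrb (1550 and 1020) and Fbln1 (90.9 and 70.8) were lower as well. The part of these differences between P1 and the later passages in the members' lower P1 levels was not tested. In bulk RNA, fewer cells of a type and less RNA per cell cannot be told apart.

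The members were moderately expressed. Their mean at the higher middle passage ranged from 6.28 to 155 CPM (median 18.8). The middle passage exceeded P1 by 0.703 to 2.89 log2 units (median 1.21) and P7 by 0.744 to 2.18 (median 1.03). For 29 of the 31 genes both the P3 and the P5 mean lay above both ends, and for 15 these 2 means lay within 0.5 log2 units of each other. The end points were not alike. P7 was above P1 for 19 genes, by 0.7 or more for 6, and below P1 for 12, by 0.7 or more for 5. In 23 of the 31 genes all 4 libraries of the higher middle passage were above all 8 libraries of P1 and P7, which held for 3.63% of the 10441 genes, and in 10 all 8 libraries of P3 and P5 were above them, which held for 0.412%. The rule used these libraries, so both counts are descriptions. The members' summed level was 367 to 442 CPM at P1, 831 to 917 at P3, 719 to 832 at P5 and 407 to 564 at P7, without overlap between the middle and the end passages.

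**Figure D1:**
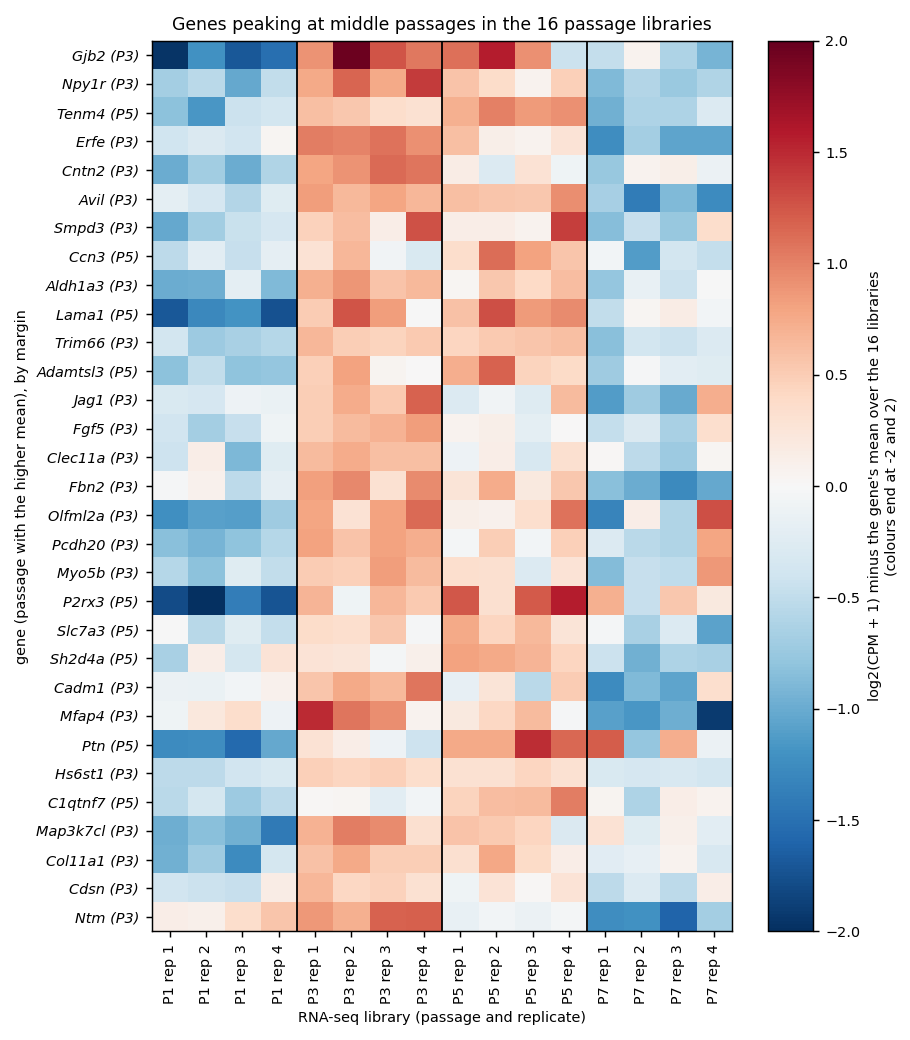
Each row is a gene, in the order of its margin and with the passage of its higher mean in brackets, each column is 1 of the 16 passage libraries, and the colour is log2(CPM + 1) minus the gene's mean over the libraries. The 8 columns of P3 and P5 are mainly red and the 8 of P1 and P7 mainly blue, with exceptions such as P7 replicate 4 for Jag1, Olfml2a, Pcdh20 and Myo5b and P7 replicate 1 for P2rx3 and Ptn.

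**Figure D2:**
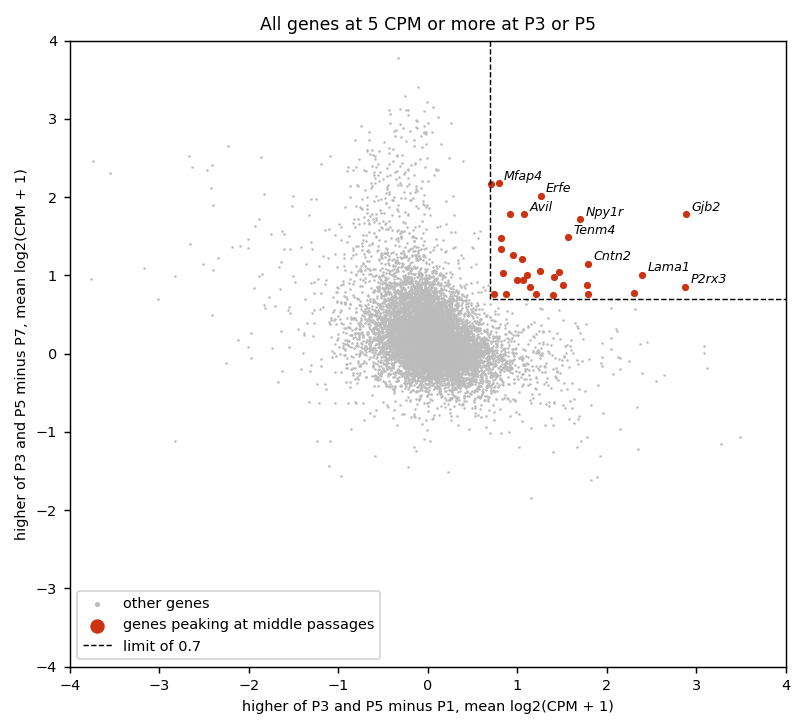
Each point is 1 of the 10441 genes at 5 CPM or more at P3 or P5, with the higher middle mean minus the P1 mean on the horizontal axis and minus the P7 mean on the vertical axis, in log2(CPM + 1). The 31 genes (red) lie right of and above the dashed limits of 0.7, and 1 gene lies outside the axes.

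The largest margins belonged to 2 membrane proteins of cell communication, Gjb2 (1.78) and Npy1r (1.70). Gjb2 (chr14:57098602-57104702, minus strand, build GRCm38) encodes connexin 26, which forms gap junction channels between cells. Its library values were 0.0745, 0.809, 0.295 and 0.471 CPM at P1, 6.80, 15.4, 8.97 and 7.73 at P3, 7.95, 11.4, 6.85 and 2.13 at P5 and 2.02, 3.42, 1.73 and 1.19 at P7. The gene was near 0 at P1, and P5 replicate 4 stood within the range of P7. Npy1r (chr8:66697149-66706800, plus strand) encodes the Y1 receptor for neuropeptide Y, a transmitter of sympathetic nerves. Npy1r was at 6.18, 6.91, 4.65 and 7.20 CPM at P1, 18.4, 24.8, 18.5 and 29.5 at P3, 16.2, 13.9, 11.1 and 15.1 at P5 and 5.26, 6.70, 5.91 and 6.61 at P7. All 8 middle libraries of Npy1r were above all 8 end libraries, and P3 was above P5. Exons of Gjb2 overlap those of Gm32912, and the counting ignored strand, so reads of the 2 genes cannot be told apart.

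Tenm4 (chr7:96171244-96911093, plus strand), a teneurin with a role in adhesion between neurons, had the largest margin (1.49) among genes with the higher mean at P5. It was at 9.08, 6.98, 12.3 and 12.8 CPM at P1, 26.1, 25.01, 21.7 and 21.1 at P3, 28.2, 34.9, 31.1 and 32.7 at P5 and 8.15, 10.7, 10.6 and 13.8 at P7. The middle and the end libraries were well separated, and P1 and P7 overlapped.

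The upstream sequences of these 3 genes and of Cdsn, whose promoter had the lowest p of the members in the ATAC-seq test described further on, are shown so that the motifs and open chromatin can be located. Each line gives the 250 bases before the start site of transcription, 5′ to 3′ on the strand of the gene, from RefSeq on GRCm38.p6. Capitals mark matches to the motifs named beneath, of which the windows of Gjb2 and Cdsn hold none. The windows are chr14:57104703-57104952 (minus strand) for Gjb2, chr8:66697172-66697421 for Npy1r, chr7:96170994-96171243 for the first of the Tenm4 start sites and chr17:35542851-35543100 for the first of Cdsn (all plus strand).
Gjb2: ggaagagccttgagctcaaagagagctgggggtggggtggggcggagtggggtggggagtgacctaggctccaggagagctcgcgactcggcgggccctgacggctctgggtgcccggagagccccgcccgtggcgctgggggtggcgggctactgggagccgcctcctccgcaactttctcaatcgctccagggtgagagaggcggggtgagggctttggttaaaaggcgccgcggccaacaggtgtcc
Npy1r: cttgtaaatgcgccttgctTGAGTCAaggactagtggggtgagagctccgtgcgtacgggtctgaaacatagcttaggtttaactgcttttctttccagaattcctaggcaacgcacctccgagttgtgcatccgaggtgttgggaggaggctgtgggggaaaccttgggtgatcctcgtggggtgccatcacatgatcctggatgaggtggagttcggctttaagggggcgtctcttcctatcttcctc
Tenm4: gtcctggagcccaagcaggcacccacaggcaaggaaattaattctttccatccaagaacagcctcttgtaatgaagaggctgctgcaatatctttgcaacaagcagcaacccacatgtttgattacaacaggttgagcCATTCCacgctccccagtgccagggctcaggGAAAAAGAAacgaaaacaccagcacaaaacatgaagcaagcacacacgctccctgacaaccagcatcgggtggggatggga
Cdsn: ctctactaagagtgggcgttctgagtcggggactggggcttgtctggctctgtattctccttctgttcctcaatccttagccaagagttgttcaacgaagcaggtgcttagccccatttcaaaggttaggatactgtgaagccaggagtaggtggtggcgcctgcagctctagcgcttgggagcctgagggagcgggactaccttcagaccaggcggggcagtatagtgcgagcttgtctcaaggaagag

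The letters searched, on both strands, were TGANTCA for AP-1, TTCCCGC or TTGGCGC for E2F, GGAATG for TEAD, GAAANNGAA for the interferon-stimulated response element, TATAAA for the TATA box and TGTGGT for RUNX. RefSeq promoter sequences were matched for 19 of the 31 members and for 27025 genes in all. AP-1 letters were found for 1 of the 19 (5.263%; Npy1r) against 7.819% of all genes, and TEAD letters for 3 (15.79%; Tenm4, C1qtnf7 and Ntm) against 14.36%. E2F letters were in none of the 19 windows and in 6.45% of all. The interferon element was found for Tenm4 and Jag1 (10.53% against 8.181%), the TATA box for Trim66 (5.263% against 14.33%) and the RUNX letters for Avil (5.263% against 15.92%). With 19 sequences, 1 gene more or fewer moves a share by 5.263 percentage points. A match is a string of letters and not a shown site of binding. Smpd3, Ccn3, Aldh1a3, Lama1, Fbn2, Myo5b, P2rx3, Slc7a3, Sh2d4a, Cadm1, Mfap4 and Map3k7cl were not matched.

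Other receptors and transporters among the members were P2rx3 and Slc7a3. P2rx3 encodes an ATP-gated ion channel of sensory neurons. Its values were 2.98, 1.91, 4.28 and 3.16 CPM at P1, 21.0, 11.9, 20.9 and 18.8 at P3, 31.7, 16.2, 31.3 and 39.9 at P5 and 21.4, 8.98, 18.9 and 14.7 at P7. The level at P7 stayed well above P1 and overlapped P3. Exons of P2rx3 overlap those of Prg3. Slc7a3, a transporter of cationic amino acids, was at 2.43 to 4.02 CPM at P1, 3.97 to 6.30 at P3, 5.02 to 7.50 at P5 and 1.41 to 3.89 at P7.

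Several members encode adhesion proteins that are best known from the nervous system. Cntn2, a contactin of axons, was at 4.02, 5.22, 4.06 and 5.59 CPM at P1, 16.4, 17.7, 21.0 and 20.01 at P3, 10.1, 7.25, 11.2 and 8.44 at P5 and 4.90, 9.55, 9.88 and 8.22 at P7. The 4 libraries of P3 were above all others. Ntm, an anchored adhesion protein of neurons, was at 5.59 to 7.95 CPM at P1, 9.03 or more at P3, 4.51 to 4.96 at P5 and 1.01 to 2.81 at P7, so its P5 libraries were below its P1 libraries. Cadm1, an immunoglobulin-like adhesion molecule, was at 11.5 to 13.6 CPM at P1, 19.2 to 27.9 at P3, 8.52 to 18.6 at P5 and 4.76 to 16.4 at P7, and Pcdh20, a protocadherin, at 8.97 to 11.9 CPM at P1, 27.1 to 32.2 at P3, 17.2 to 25.8 at P5 and 11.5 to 31.8 at P7. In both genes P7 replicate 4 was the highest P7 library and stood apart from the other 3. Cdsn encodes corneodesmosin, an adhesion protein of the outer epidermis, and was at 6.50 to 10.4 CPM at P1, 11.7 to 15.3 at P3, 8.65 to 11.4 at P5 and 6.13 to 10.3 at P7. Its P7 replicate 4 and P1 replicate 4 came close to the P3 range.

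Several members encode proteins of the extracellular matrix. Col11a1, a chain of a fibrillar collagen that regulates fibre diameter, was at 42.8, 51.0, 34.6 and 65.8 CPM at P1, 128, 143, 118 and 119 at P3, 105, 145, 109.7 and 92.3 at P5 and 71.9, 74.8, 88.3 and 67.2 at P7. All of its middle libraries exceeded all end libraries, and P7 was above P1. Fbn2 encodes fibrillin-2, a component of the microfibrils of elastic fibres. It was at 22.6, 24.7, 15.8 and 20.2 CPM at P1, 41.6, 45.8, 28.7 and 45.2 at P3, 27.9, 39.5, 26.7 and 34.1 at P5 and 12.5, 11.1, 9.01 and 10.8 at P7, so that every P7 library was below every P1 library. Mfap4, a glycoprotein of the same microfibrils, was at 6.11, 7.72, 8.57 and 5.99 CPM at P1, 20.1, 14.8, 13.3 and 6.86 at P3, 7.63, 9.01, 10.6 and 6.38 at P5 and 2.52, 2.35, 2.81 and 0.984 at P7. Its P3 libraries were widely spread, and P3 replicate 4 lay within the P1 range. Lama1, a basement membrane laminin chain, was at 0.596, 1.10, 1.26 and 0.539 CPM at P1, 6.34, 11.4, 8.19 and 4.12 at P3, 6.74, 11.5, 8.26 and 8.95 at P5 and 2.67, 4.28, 4.69 and 3.94 at P7. The levels were lowest at P1 and, on average, intermediate at P7. Adamtsl3, a secreted protein related to ADAMTS proteases without their catalytic domain, was at 6.25 to 8.16 CPM at P1, 11.99 to 21.4 at P3, 15.7 to 28.2 at P5 and 6.85 to 11.7 at P7, and Olfml2a, an olfactomedin-like matrix protein, at 6.18 to 9.29 CPM at P1, 19.5 to 36.0 at P3, 16.8 to 34.8 at P5 and 5.70 to 40.1 at P7. Ccn3, a matricellular regulator of growth, was at 25.8, 32.1, 27.1 and 32.9 CPM at P1, 46.1, 60.2, 35.6 and 30.0 at P3, 48.4, 82.2, 66.5 and 55.4 at P5 and 36.1, 16.7, 28.7 and 26.7 at P7. The P3 libraries of Ccn3 overlapped those of P1 and P7, while its P5 libraries did not.

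Secreted factors and ligands included Erfe, Fgf5, Ptn, Clec11a, C1qtnf7 and Jag1. Erfe encodes erythroferrone, a hormone that lowers hepcidin. It was at 6.92, 7.50, 7.01 and 9.76 CPM at P1, 20.1, 19.8, 21.1 and 18.7 at P3, 14.9, 10.4, 9.93 and 11.6 at P5 and 3.39, 5.49, 4.04 and 4.01 at P7, highest at P3 and lowest at P7 without overlap between any of the passages P3, P5 and P7. Fgf5, the fibroblast growth factor that ends the growth phase of hair, was at 6.69 to 10.6 CPM at P1, 16.3 to 20.9 at P3, 9.74 to 12.3 at P5 and 6.85 to 14.5 at P7. Ptn, or pleiotrophin, is a heparin-binding growth factor. Its values were 6.11, 6.18, 4.80 and 7.34 CPM at P1, 19.8, 17.8, 14.8 and 11.8 at P3, 27.7, 27.8, 46.6 and 36.8 at P5 and 38.7, 8.98, 27.1 and 14.7 at P7. P7 replicate 1 was within the P5 range and the other 3 below it. Clec11a, an osteogenic growth factor, was at 1.70 to 4.49 CPM at P1, 6.56 to 7.37 at P3, 3.01 to 5.28 at P5 and 2.02 to 4.15 at P7. Jag1, a ligand of Notch receptors, was at 53.8, 52.2, 62.1 and 60.1 CPM at P1, 94.0, 112, 95.5 and 151 at P3, 54.9, 63.1, 55.3 and 104 at P5 and 30.1, 40.1, 32.5 and 111 at P7. P7 replicate 4 of Jag1 was higher than 2 of the 4 P3 libraries.

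The enzymes were Aldh1a3, which makes retinoic acid, Smpd3, a neutral sphingomyelinase, and Hs6st1, which sulfates heparan sulfate. Aldh1a3 was at 4.47 to 8.57 CPM at P1, 15.3 to 19.0 at P3, 10.2 to 15.7 at P5 and 5.41 to 9.84 at P7, and all its middle libraries were above all its end libraries. Smpd3 was at 2.01 to 3.84 CPM at P1, 5.72 to 13.8 at P3, 5.44 to 14.9 at P5 and 2.38 to 6.82 at P7. Hs6st1 had the highest mean level of the members, at 78.6, 78.7, 86.9 and 91.8 CPM at P1, 158, 155, 159 and 146 at P3, 142, 140.4, 154 and 141 at P5 and 92.3, 90.2, 91.1 and 88.1 at P7. Its middle libraries ranged from 140.4 to 159 CPM and its end libraries from 78.6 to 92.3. The middle and the end libraries were separated in Hs6st1 and Aldh1a3 and overlapped in Smpd3, whose replicate 4 was the highest library at each of the 4 passages.

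Avil encodes the actin-binding protein advillin and was at 4.36 to 6.03 CPM at P1, 11.6 to 13.5 at P3, 10.8 to 14.3 at P5 and 2.07 to 4.11 at P7. Its P7 libraries were below its P1 libraries. Trim66, a chromatin reader, was at 12.2 to 15.8 CPM at P1, 28.7 to 33.3 at P3, 28.2 to 31.8 at P5 and 11.2 to 16.9 at P7, with P3 and P5 both above all end libraries. Of the members not covered by the rule for named genes, Myo5b, a myosin of vesicle transport, was at 3.24 to 5.32 CPM at P1, 9.37 to 12.3 at P3, 5.19 to 8.46 at P5 and 3.10 to 12.7 at P7, Sh2d4a, an adaptor with an SH2 domain, at 2.46 to 5.52 CPM at P1, 4.29 to 5.55 at P3, 6.31 to 8.46 at P5 and 1.78 to 3.03 at P7, C1qtnf7, a secreted C1q-like protein, at 2.51 to 3.53 CPM at P1, 4.03 to 4.96 at P3, 6.87 to 10.8 at P5 and 2.78 to 5.34 at P7 and Map3k7cl at 1.28 to 2.43 CPM at P1, 6.64 to 11.4 at P3, 3.99 to 8.08 at P5 and 4.13 to 6.42 at P7. Map3k7cl was higher at P7 than at P1 in every library, and Sh2d4a was separated from all other passages at P5. Exons of Myo5b, Slc7a3, Cadm1, Fbn2 and Erfe overlap those of other genes (Gm52348, Snx12, Gm10677, Gm41741 and Ilkap), so their counts carry the same doubt as those of Gjb2 and P2rx3.

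**Figure D3:**
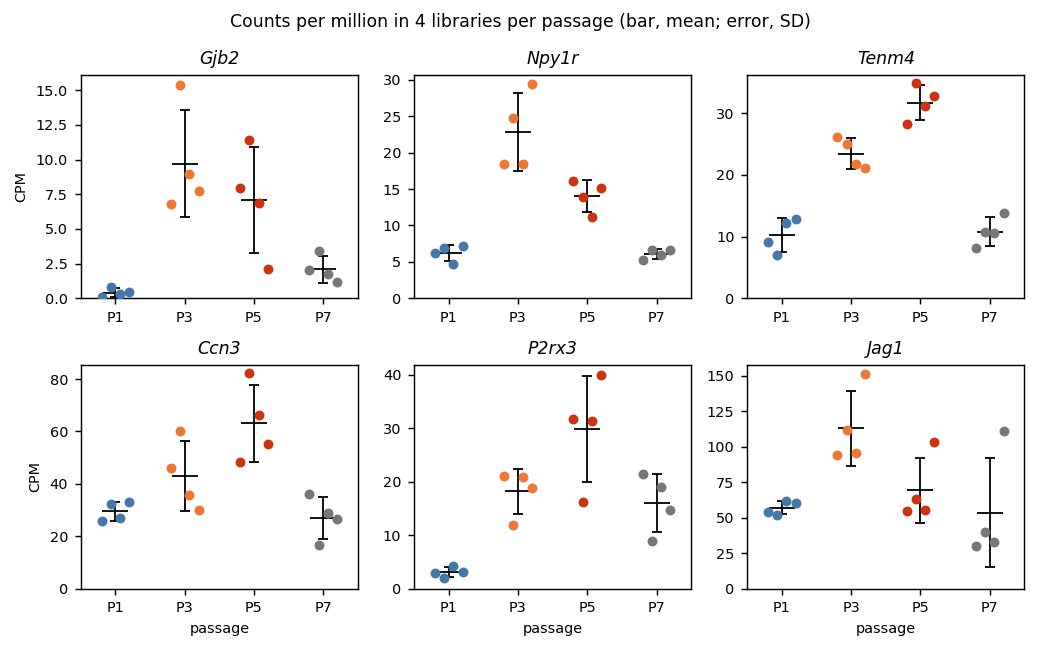
Points are the CPM of 6 members in the 4 libraries of each passage, the horizontal bar is the mean and the error bar the SD. Npy1r and Tenm4 are separated from both ends in all libraries, P2rx3 keeps part of its level at P7, and Jag1 has 1 P7 library at 111 CPM.

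Near the limit, the members with the smallest margins were Ntm (0.703), Cdsn (0.743) and Col11a1 (0.744). Just outside were Lgr5 (0.698), the R-spondin receptor of hair follicle stem cells, Lrtm1 (0.696), a leucine-rich repeat membrane protein, and Synm (0.692), an intermediate filament protein. Lgr5 missed the limit at P7 and Synm at P1. Without P7 replicate 4 the rule gave 35 genes, of which 29 were shared with the 31, and Col11a1 and Ptn were lost. The margin of Olfml2a moved from 0.883 to 1.36 and that of Pcdh20 from 0.881 to 1.20, while that of Jag1 was set by P1 and stayed at 0.952.

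Among 23 gene lists for skin cells and signalling, 5 held members. Matrix glycoproteins held 3 of 56 genes at 5 CPM or more (Fbn2, Mfap4 and Lama1), growth factors 3 of 43 (Fgf5, Ptn and Ccn3), cadherins and adhesion receptors 2 of 45 (Pcdh20 and Cadm1), collagens 1 of 24 (Col11a1) and proteases with their inhibitors 1 of 40 (Adamtsl3). No member stood in the cell cycle list (0 of 67), the interferon-stimulated list (0 of 26), the Wnt list (0 of 31) or the TGF-beta and BMP list (0 of 39). Over all genes at 5 CPM or more, 31 of 10441 were members. At that share most lists of these sizes would hold none, so the counts of 0 say little.

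The knockdown and overexpression libraries took no part in the choice of members, so they can be tested. A gene was called when its adjusted p in edgeR's quasi-likelihood test, over all genes of the experiment, was under 0.05 and its log2 fold change was over 1 in either direction. Of the 31 members, 24 were tested in all 6 comparisons with controls and 2, Fgf5 and Myo5b, in none because of low counts. In the control libraries 22 members averaged 1 CPM or more in all 4 experiments, and 4 (Cntn2, Fgf5, Myo5b and Ntm) were under 1 CPM in all 4. Of the 29 members tested in 1 comparison or more, 26 were called at least once, against 31.8% of the 13787 genes so tested, and Npy1r, Aldh1a3 and Hs6st1 were tested and never called. No called member had overlapping groups. The share of such genes among all called genes was not counted, so this is a description of the libraries and not a trait of the members.

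The targeted genes were measured first. E2f4 was at 1116 and 1171 CPM with overexpression against 35.9 and 47.3 in the controls (log2 fold change 4.79, SE 0.15, adjusted p = 7.07e-08). E2f4 was at 20.3 to 21.6 CPM with sh1 against 59.4 to 61.1 in its controls (log2 fold change -1.497, SE 0.09, adjusted p = 2.14e-07). Tead1 was at 509 to 567 CPM in the non-targeting libraries, at 269 to 285 with sh3 (log2 fold change -0.96, SE 0.04, adjusted p = 4.63e-17) and at 315 to 320.4 with sh4 (log2 fold change -0.78, SE 0.04, adjusted p = 8.58e-15), below the limit on the fold change. Atf3 was scarce, at 2.82 to 3.34 CPM in the controls. It was at 0.458 to 2.12 CPM with sh5 (log2 fold change -1.14, SE 0.39, adjusted p = 0.0447) and at 1.47 to 2.06 with sh6 (log2 fold change -0.79, SE 0.39, adjusted p = 0.114). The sh6 libraries were thus all below the controls, and the difference did not pass the test.

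With the Atf3 hairpin sh6, most members were lower. Of 28 members tested, 20 fell, against 10.9% of the 13345 genes tested, and 0 rose, against 4.83%. DESeq2 also gave 20 and 0. Without the limit on the fold change, 24 members fell at an adjusted p under 0.05 in edgeR's test, against 26.0% of all genes. In that setting 0 members rose, against 23.8%. At an unadjusted p under 0.05, 25 members had a decrease and 0 an increase, and the share of all genes at that p was not counted. All 28 fitted values were below 0, from -3.97 to -0.01, with a median of -2.02 against -0.02 over all genes. All 9 members with the higher mean at P5 fell (median -2.66), and 11 of the 19 tested with the higher mean at P3 (median -1.90).

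Several of these genes encode matrix proteins. Ccn3 was at 315, 296 and 295 CPM in the non-targeting libraries and at 15.4, 16.6 and 24.0 with sh6 (log2 fold change -3.97, SE 0.21, adjusted p = 2.78e-07). Col11a1 went from 176, 190.5 and 182 CPM to 20.2, 19.3 and 23.1 (log2 fold change -3.08, SE 0.09, adjusted p = 1.78e-08), and Mfap4 from 87.7, 87.2 and 91.8 to 12.5, 8.002 and 13.3 (log2 fold change -2.93, SE 0.18, adjusted p = 8.76e-07). The groups were far apart in each of these genes. Adamtsl3 (-2.73), Fbn2 (-1.77), Olfml2a (-3.86) and Lama1 (-1.10) also fell on the log2 scale. Olfml2a was scarce, at 1.22 to 2.15 CPM with the non-targeting hairpin, and its fold change had an SE of 0.81. The decrease of Lama1 was lost without sh6 replicate 2 (-0.93) or non-targeting replicate 2 (-0.90). In the whole list of matrix glycoproteins 33 of 66 genes tested fell and 4 rose (median -1.06), and of the collagens 13 of 34 fell and 1 rose (median -0.83).

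Among receptors and ligands, P2rx3 fell from 7.23, 6.72 and 7.42 CPM to 0.283, 0.464 and 0.629 (log2 fold change -3.89, SE 0.25, adjusted p = 8.93e-07), and Tenm4 from 42.5, 41.3 and 41.6 to 8.60, 8.002 and 8.98 (log2 fold change -2.24, SE 0.10, adjusted p = 1.13e-07). Ptn was far more abundant here than in the passage series, at 1819, 1735 and 1888 CPM with the non-targeting hairpin and 552, 482 and 567 with sh6 (log2 fold change -1.72, SE 0.13, adjusted p = 2.65e-06). Each of these groups was separated from its controls. Trim66 (-2.58), Cdsn (-2.72), Smpd3 (-2.27), Avil (-2.17), Erfe (-2.05), Clec11a (-1.997) and Cadm1 (-1.90) fell as well. C1qtnf7 (-2.66), Sh2d4a (-2.76, SE 0.74) and Slc7a3 (-1.73) complete the 20. Some of these genes were scarce with the non-targeting hairpin, such as Erfe (0.813 to 2.31 CPM) and Avil (2.14 to 2.87 CPM). Gjb2 passed on p and not on the fold change (log2 fold change -0.98, SE 0.12, adjusted p = 8.7e-05), and Jag1 (log2 fold change -0.24, SE 0.10, adjusted p = 0.0729) and Aldh1a3 (log2 fold change -0.01, SE 0.16, adjusted p = 0.965) were near 0. In the growth factor list 17 of 49 genes fell and 5 rose, and among cadherins and adhesion receptors 14 of 63 fell and 5 rose.

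The sh6 libraries differed from their controls in other genes too. The 11 fibroblast markers summed to 45719 to 47361 CPM with sh6 and to 55383 to 58251 with the non-targeting hairpin. Of the 11, 5 fell and 0 rose by the test, although Fn1 was at 28787 to 30804 CPM with sh6 against 15298 to 17204. The 14 skeletal muscle markers summed to 197 to 214 CPM against 39.2 to 41.4. That sum was mainly Acta1, at 191 to 208 CPM against 34.3 to 35.8. Of 5 skeletal muscle markers tested, 3 rose and 2 fell. Mylpf was at 1.04 to 2.89 CPM with sh6 against 0.376 to 0.470, and Ttn at 2.15 to 3.71 against 0.772 to 1.28. Des was at 0.962 to 1.62 CPM against 2.18 to 3.24, and Tnnt3 at 0 to 0.170 against 0.551 to 0.705. Myod1 was at 0.174 CPM or less and Pax7, Myh8 and Actn2 were at 0 in both groups. Of 21 contractile genes of smooth muscle, 7 rose and 1 fell with sh6 (median 0.69), and 12 were higher and 0 lower with sh6 than with sh5. The 9 adipocyte markers summed to 41.3 to 60.2 CPM with sh6, 190.0 to 215 with sh5 and 136 to 172 with the non-targeting hairpin. That sum was mainly Lpl, at 32.1 to 48.9 CPM with sh6 and 126 to 162 with the non-targeting hairpin. Pparg was at 7.24 to 8.23 CPM with sh6 against 7.94 to 9.26, and Fabp4 at 1.53 to 3.02 against 1.38 to 2.68. Of 3 adipocyte markers tested with sh6, 1 fell and 0 rose. Of 35 interferon-stimulated genes tested, 13 fell and 1 rose with sh6 (median -1.13), and 11 fell and 0 rose with sh5 (median -1.60). The part of these shifts in the members' decrease was not tested.

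With the other Atf3 hairpin, sh5, 6 of the 28 members tested fell, against 3.82% of all genes, and 1 rose, against 1.38%. The median was -0.29 against -0.03 over all genes. Smpd3 fell from 3.21, 2.59 and 2.02 CPM to 0.441, 0.413 and 0.115 (log2 fold change -2.98, SE 0.53, adjusted p = 0.00269), Mfap4 to 32.2, 35.8 and 24.9 CPM (log2 fold change -1.53, SE 0.17, adjusted p = 0.000322) and Trim66 to 10.5, 12.5 and 10.3 CPM (log2 fold change -1.23, SE 0.12, adjusted p = 0.000197). P2rx3 (-1.16), Cdsn (-1.11) and Olfml2a (-2.06) completed the group. The call on Olfml2a was lost without sh5 replicate 2 (-2.17), sh6 replicate 3 (-2.04) or any of the non-targeting replicates 1, 2 and 3 (-2.20, -1.75 and -2.21), and also when sh5 and its controls were fitted without the sh6 libraries (-2.04, adjusted p = 0.0647 in edgeR's test). Ntm rose to 2.09, 1.55 and 1.78 CPM from 0.342, 0.772 and 0.517 (log2 fold change 1.74, SE 0.44, adjusted p = 0.0136), a call that was lost without non-targeting replicate 1 (1.48) or 3 (1.71). Both hairpins were compared with the same 3 control libraries.

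The hairpins were compared directly. Of the 28 members, 18 were lower with sh6 than with sh5, against 9.39% of all genes, and 0 were higher, against 6.36%. DESeq2 also gave 18 and 0. Without the limit on the fold change, 21 members were lower at an adjusted p under 0.05 in edgeR's test, against 26.6% of all genes. In that setting 1 member was higher, against 25.9%. The median difference was -1.54. Ccn3 was at 314, 360.2 and 219 CPM with sh5 and 15.4, 16.6 and 24.0 with sh6 (log2 difference -3.94, SE 0.21, adjusted p = 3.8e-07), and Adamtsl3 at 16.7, 15.7 and 16.5 and 1.98, 1.68 and 1.60 (log2 difference -3.15, SE 0.14, adjusted p = 1.61e-07). For Ccn3, Adamtsl3 and Ptn, sh5 was within 0.5 log2 units of the controls (-0.03, 0.43 and -0.12). E2f4 was also higher with sh6 than in the controls (log2 fold change 0.67, SE 0.10, adjusted p = 0.000311), under the limit on the fold change. The Atf3 levels with the 2 hairpins overlapped.

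**Figure D4:**
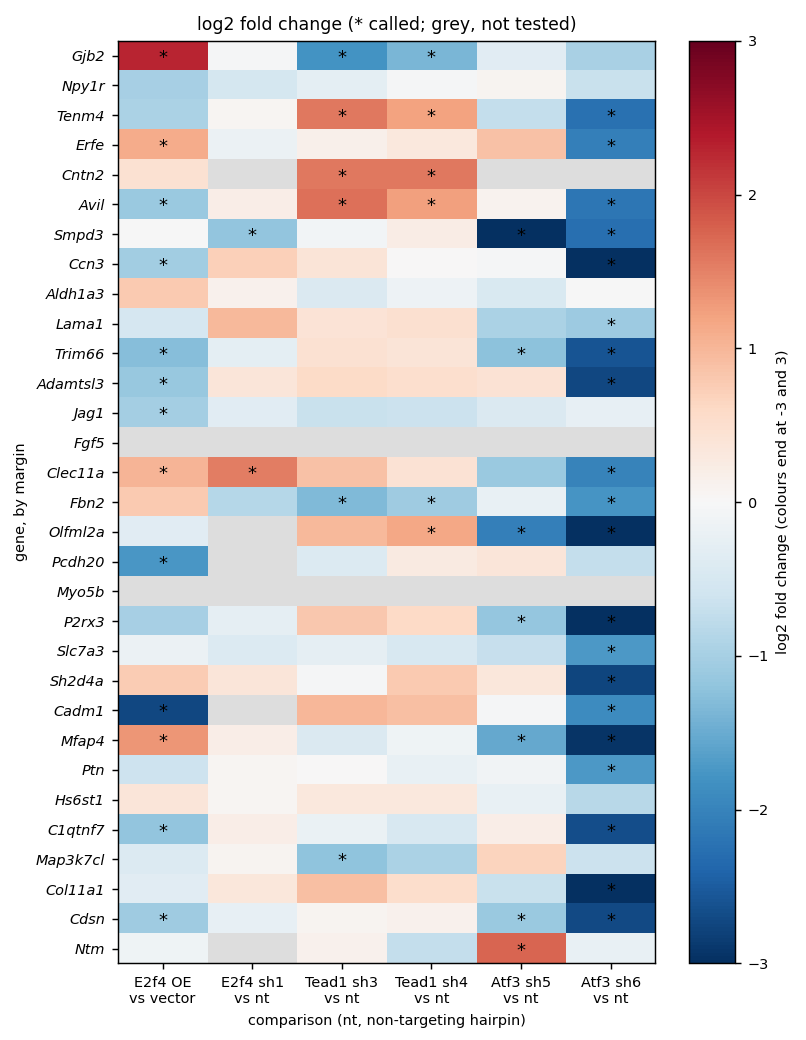
Colours give the log2 fold change of each member (rows, by margin) in 6 comparisons (columns), with an asterisk where the gene was called and grey where it was not tested. The Atf3 sh6 column is blue almost throughout, with 20 asterisks, and Gjb2 has opposite colours for E2f4 overexpression and for the Tead1 hairpins.

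Tead1 knockdown moved a few members in both directions. With sh3, 3 of 29 rose, against 1.99% of 13012 genes, and 3 fell, against 0.722%. With sh4, 4 rose, against 1.01%, and 2 fell, against 0.523%. The medians were 0.12 and 0.27 against 0.00 over all genes. Other genes moved too. Of 35 interferon-stimulated genes tested, 27 rose with sh3 (median 1.67) and 4 with sh4 (median 0.47), and 0 fell with either hairpin. Between the hairpins, 18 of them were lower and 0 higher with sh4. The part of this shift in the members' changes was not tested. Tenm4 was at 8.88, 7.90 and 9.41 CPM in the non-targeting libraries, at 21.8, 28.8 and 28.1 with sh3 (log2 fold change 1.58, SE 0.12, adjusted p = 2.76e-12) and at 17.0, 22.6 and 21.3 with sh4 (log2 fold change 1.20, SE 0.12, adjusted p = 2.8e-09). Both sets were above all controls. Avil (1.66 with sh3 and 1.23 with sh4) and Cntn2 (1.57 and 1.59) rose as well, at low levels: Cntn2 was at 0.344 to 0.455 CPM in the controls and 1.10 to 1.20 with sh3. Olfml2a rose with sh4 (log2 fold change 1.17, SE 0.33, adjusted p = 0.00756), which was lost without non-targeting replicate 2 (0.84).

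Gjb2 had the largest decrease among the members called with either Tead1 hairpin. It was at 37.5, 34.6 and 32.0 CPM in the controls, 11.5, 8.67 and 10.01 with sh3 (log2 fold change -1.79, SE 0.10, adjusted p = 1.37e-14) and 12.7, 12.1 and 15.9 with sh4 (log2 fold change -1.36, SE 0.10, adjusted p = 4.78e-12). Fbn2 fell from 216, 204 and 213 CPM to 91.3, 81.6 and 80.9 (log2 fold change -1.32, SE 0.05, adjusted p = 2.47e-18) and 96.3, 103 and 106 (log2 fold change -1.06, SE 0.05, adjusted p = 3.05e-16). Map3k7cl fell with sh3 (log2 fold change -1.20, SE 0.14, adjusted p = 3.49e-08) and stayed under the limit on the fold change with sh4 (-0.96). The 2 hairpins share their controls. Compared with each other, 0 of 29 members were called, also by DESeq2, against 0.0231% of all genes higher and 0.246% lower with sh4. Without the limit on the fold change, 3 members were higher at an adjusted p under 0.05 in edgeR's test, against 3.34% of all genes. In that setting 4 members were lower, against 4.03%. At an unadjusted p under 0.05, 6 members were higher and 5 lower, and the share of all genes at that p was not counted. The differences ranged from -0.84 to 0.83.

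E2f4 overexpression moved members in both directions. Of 29 tested, 9 fell, against 10.4% of 13199 genes, and 4 rose, against 7.69%. The median was -0.40 against 0.01, with -0.94 for the 9 members highest at P5 and -0.23 for the 20 highest at P3. Gjb2 rose from 8.22 and 7.92 CPM to 38.1 and 39.7 (log2 fold change 2.28, SE 0.14, adjusted p = 2.66e-06), Mfap4 from 4.73 and 5.97 to 12.9 and 13.7 (log2 fold change 1.33, SE 0.18, adjusted p = 0.000138), Erfe from 6.67 and 6.02 to 12.5 and 15.0 (log2 fold change 1.12, SE 0.17, adjusted p = 0.000297) and Clec11a from 18.3 and 21.8 to 41.4 and 39.6 (log2 fold change 1.03, SE 0.14, adjusted p = 0.000127). These genes code for a channel, a matrix protein and 2 secreted factors. Among those that fell, Trim66 went from 19.7 and 18.2 CPM to 7.22 and 8.30 (log2 fold change -1.28, SE 0.15, adjusted p = 7.31e-05), Adamtsl3 from 51.8 and 44.0 to 23.1 and 20.3 (log2 fold change -1.13, SE 0.13, adjusted p = 6.79e-05) and Jag1 from 198 and 182 to 96.1 and 88.8 (log2 fold change -1.03, SE 0.11, adjusted p = 3.38e-05). Cadm1 (-2.74) and Pcdh20 (-1.74) fell from levels near 1 CPM, and Ccn3 (-1.05), Cdsn (-1.06), C1qtnf7 (-1.18) and Avil (-1.12) by about the limit. With 2 libraries a group, 1 library decided many of these: without overexpression replicate 2, 7 members were called, and Avil, C1qtnf7, Cdsn, Erfe, Jag1 and Pcdh20 were not. Without overexpression replicate 1 the calls on Avil, C1qtnf7 and Clec11a were lost, without control replicate 1 those on Avil, Cdsn, Clec11a, Jag1 and Pcdh20, and without control replicate 2 those on Avil and C1qtnf7. Avil, C1qtnf7 and Pcdh20 were not called by DESeq2 either.

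With E2f4 knockdown by sh1, few members passed the test. Of 24 tested, 1 rose, against 1.46% of 12310 genes, and 1 fell, against 0.211%. Clec11a rose from 1.46, 1.19 and 0.965 CPM to 3.06, 3.06 and 4.46 (log2 fold change 1.54, SE 0.33, adjusted p = 0.00509), the same direction as with overexpression. Smpd3 fell from 7.78, 6.82 and 7.53 CPM to 3.44, 3.61 and 2.61 (log2 fold change -1.19, SE 0.22, adjusted p = 0.00166). Gjb2, which rose with overexpression, was at 31.0, 20.2 and 28.1 CPM with sh1 and 26.3, 23.0 and 31.9 in the controls (log2 fold change -0.03, SE 0.15, adjusted p = 0.930). The median was 0.06 against -0.01. Of 35 interferon-stimulated genes tested, 31 rose and 0 fell with sh1 (median 2.06). The part of this shift in the members' changes was not tested.

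ATAC-seq took no part in the choice of members and was used to ask whether their promoters followed the RNA. The strength of a promoter was the highest fold enrichment of a peak summit within 1000 bases of any of the gene's start sites, as log2(fold enrichment + 1), and limma was used for the tests. A peak was present in all 13 samples for 24 of the 31 members, in some samples for 6 and in none for Clec11a. The members' promoters were weaker than those of the 10397 other genes at 5 CPM or more, with a median fold enrichment of 4.08 to 6.65 per sample against 8.81 to 12.4. Ranked by p among all peaks of a sample, the members' median percentile was 64.2 to 69.3 at P1, 54.9 to 60.3 at P3, 59.5 to 61.8 at P5 and 46.3 to 53.2 at P7, and that of the other genes 90.1 to 93.4 throughout. The number of peaks was 168982 to 186562 at P1 and 200376 to 231558 at P7, and its part in the lower percentile at P7 was not tested. The P3 samples were lower than P1 and P7 over all genes (median -0.14), and the P5 samples higher (median 0.09). The members' medians were close to this shift. At P3, 21 of 29 were lower and 8 higher than the mean of P1 and P7, with a median of -0.12. At P5, 8 were lower and 21 higher, with a median of 0.10. At P3 0 members were called higher, against 0.146% of 17148 genes, and 1 lower, against 3.22%. At P5 0 were called in either direction, against 0.216% higher and 0.0816% lower. At an unadjusted p under 0.05 in limma, 2 members were higher and 5 lower at P3, and 3 higher and 0 lower at P5. The share of all genes at that p was not counted, so these numbers are not a trait of the members.

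The promoter called at P3 was that of Cdsn, with fold enrichments of 8.09, 8.39, 7.71 and 10.1 at P1, 6.01, 5.31 and 5.49 at P3, 7.21, 7.16 and 8.82 at P5 and 6.51, 9.43 and 7.60 at P7 (difference -0.47, SE 0.11, adjusted p = 0.0396). It was weakest at P3, the passage of its highest RNA. The call was lost when samples were centred on their medians (-0.34, adjusted p = 0.134) and without any 1 of 9 of the 13 samples (each P1 replicate, P3 replicates 2 and 3, P5 replicate 2 and P7 replicates 2 and 3), and within 500 bases the difference turned to 1.24 (adjusted p = 0.338). The strongest summits of Cdsn lay 376 to 563 bases after the first start site, outside the printed window and partly outside the 500 bases. Npy1r was also weakest at P3, at 9.68, 8.39 and 8.27, with 10.7, 11.8, 9.79 and 11.2 at P1, 15.6, 12.9 and 11.5 at P5 and 12.3, 10.3 and 12.7 at P7, and passed in neither contrast (difference -0.33, SE 0.10, adjusted p = 0.0700; P5 difference 0.21, SE 0.10, adjusted p = 0.326). In all 13 samples its strongest summit lay at positions -280 to -248 relative to the start site, at or beyond the upstream edge of the printed window, and the AP-1 letters begin 231 bases before the start site.

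Other promoters with low unadjusted p did not pass either. Aldh1a3 was at 8.68, 8.55 and 6.37 at P5, with 6.69, 5.10, 6.24 and 5.01 at P1 and 3.96, 4.55 and 5.68 at P7 (difference 0.51, SE 0.13, adjusted p = 0.119). Tenm4 was at 5.08, 5.18, 4.33 and 6.30 at P1, 7.06, 5.46 and 6.77 at P3, 9.32, 7.32 and 8.17 at P5 and 8.63, 7.08 and 6.04 at P7 (P5 difference 0.38, SE 0.13, adjusted p = 0.209), and its summits lay at positions -193 to 113 relative to the first start site. Mfap4 had a peak in all P1 and P3 samples, in 1 of 3 at P5 and in none at P7 (P3 difference 1.12, SE 0.37, adjusted p = 0.1). Gjb2, with the largest margin in RNA, had weak peaks of 2.78, 3.28, 2.63 and 2.98 at P1, 2.61, 3.85 and 3.94 at P3, 4.05, 3.72 and 2.48 at P5 and 2.52, 2.98 and 3.19 at P7, and the passages overlapped.

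Peaks that appeared in the middle passages were counted around the members. A peak was taken as transient when it was in over 60% of the samples of P3 or of P5 and overlapped no peak of any P1 or P7 sample, which gave 691 peaks for P3 and 2745 for P5. Such a peak lay within 50 kb of a start site for 9 of the 31 members (29.0%: Tenm4, Erfe, Cntn2, Lama1, Jag1, Fbn2, P2rx3, Sh2d4a and Hs6st1), against 19.1% of 10397 other genes. Fbn2 had 2 and the others 1 each. This is a count with no test.

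**Figure D5:**
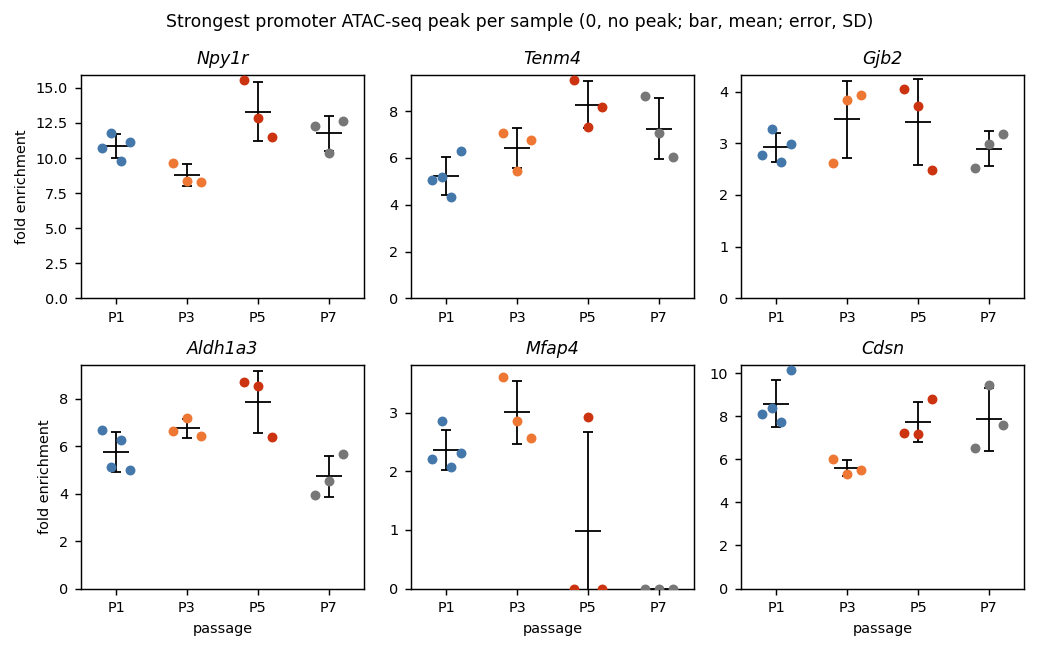
Points are the fold enrichment of the strongest promoter peak of 6 members in each ATAC-seq sample (4 of P1, 3 each of P3, P5 and P7), with 0 where there was no peak, the mean as a bar and the SD as the error bar. Cdsn and Npy1r are lowest at P3, Aldh1a3 is highest at P5, and Mfap4 has no peak at P7.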

How the data were processed

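RNA-seq and ATAC-seq of mouse skin fibroblasts were used, and RRBS methylation data were not analysed here. For RNA, the authors trimmed reads with Trimmomatic 0.39, aligned them with HISAT2 2.2.1 to mm10 and counted reads per gene with HTSeq 0.12.4 without regard to strand, and the deposited values are raw counts. Summary rows of HTSeq (7.50% to 16.8% of the counts of 28 libraries) were left out. For ATAC-seq, the authors aligned with Bowtie2 2.3.5.1 and called peaks per sample with MACS2, and the deposited peak lists give the fold enrichment (a ratio) and the −log10 of the p and q values at each summit. No read depth of the peak lists was given, so it is unknown.

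Groups were taken from the labels. The members, gene lists and tests were chosen with earlier results of these data known. Genes kept by edgeR's filterByExpr with TMM scaling were tested with edgeR 4.0.16 (glmQLFit and glmQLFTest, R 4.3.3), all groups of an experiment sharing 1 estimate of the spread, with Benjamini-Hochberg adjustment over all genes. Standard errors were derived from the F value. Promoter strength, for genes with a peak in at least 2 samples, was tested with limma 3.58.1, likewise adjusted, and called at an adjusted p under 0.05. All tests are two-sided. DESeq2 1.42.0, other scalings, filters, windows and margins and left-out libraries were the alternatives, and the scripts were tested on simulated data. Replicate libraries of every pair differed beyond counting error. Named genes were the members with the 12 largest margins, the 8 highest mean CPM, a place in a gene list, the most calls (up to 8) or the largest called changes of a comparison (up to 2), or the 3 lowest p in an ATAC-seq contrast, the 3 genes nearest the limit on each side, and the targeted genes; Myo5b, Slc7a3, Sh2d4a, C1qtnf7 and Map3k7cl are outside that rule and were named to account for every member, after their values were seen. Gene names matched RefSeq for 24463 genes by symbol and 435 by an older symbol, and coordinates are those of GRCm38.p6 (mm10).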

Additional observations from a re-analysis of the deposited data

Results flagged for a closer look

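Of 124 groups of 4 passage libraries, 13 held a library far from the other 3 by Dixon's test, where chance gives about 1 in 20. At P7, replicate 4 was high for Jag1 (111 CPM), Pcdh20 (31.8), Myo5b (12.7) and Cadm1 (16.4), and replicate 2 was low for C1qtnf7 (2.78). At P5, replicate 4 was high for Avil (14.3), Smpd3 (14.9) and Jag1 (103.6), while replicate 3 was low for Myo5b (5.19) and high for Hs6st1 (154). At P1, Aldh1a3 was high in replicate 3 (8.57), Adamtsl3 in replicate 2 (8.16) and Cdsn in replicate 4 (10.4). Among 31 groups of 4 P1 promoter values, 2 had such a sample, Adamtsl3 in replicate 1 (fold enrichment 4.55) and P2rx3 in replicate 4 (2.58).

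For 18 members the 2 Atf3 hairpins differed in edgeR's test of sh6 against sh5. All 18 were lower with sh6, on the log2 scale by -3.94 for Ccn3, -3.15 for Adamtsl3, -3.10 for Sh2d4a, -2.94 for Erfe, -2.86 for C1qtnf7, -2.73 for P2rx3, -2.40 for Col11a1, -2.27 for Avil, -1.97 for Ntm and -1.86 for Cadm1. The other differences were -1.61 for Cdsn, -1.60 for Ptn, -1.55 for Fbn2, -1.53 for Tenm4, -1.41 for Mfap4, -1.36 for Trim66, -1.31 for Map3k7cl and -1.04 for Slc7a3. The call on Slc7a3 was lost without sh5 replicate 1 or 2 or sh6 replicate 1.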

How the results depend on the processing

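The rule gave 72 genes with a margin of 0.5 (all 31 among them), 11 with a margin of 1 and 17 on log2(CPM + 5). With TMM-scaled libraries it gave 33 genes, 27 of them shared, without Cdsn, Col11a1, Hs6st1 and Map3k7cl. It gave 27 to 35 genes when 1 library was left out (27 without P7 replicate 2). Without the limit on the fold change, calls among all genes and among members were 7548 and 21 for E2f4 overexpression, 2192 and 9 for E2f4 sh1, 4601 and 20 for Tead1 sh3, 3788 and 17 for Tead1 sh4, 959 and 7 between the Tead1 hairpins, and 4785 and 15 for Atf3 sh5. They were 6642 genes for Atf3 sh6 and 7013 between the Atf3 hairpins. With at least 10 counts in every library, Tead1 sh3 gave 221 genes, sh4 116 and the Tead1 hairpin comparison 18 (16 by DESeq2), and 3 members were called for Atf3 sh5 and 12 for sh6, since fewer genes were tested. With 1 library left out, E2f4 overexpression called 7 to 12 members and 1883 to 2913 genes. ATAC-seq at P3 gave 115 to 1011 genes and 0 to 2 members with 1 sample left out (115 without P3 replicate 2, 1011 without P7 replicate 1), and 310 genes, 64 higher and 246 lower against 25 and 552, with samples centred on their medians. The number of members called at P3 was 0 with percentiles, with a window of 500 bases, with centring and with the replicate block. The Cdsn difference at P3 reversed to 1.24 with 500 bases, a window that leaves out some of its summits. At P5, 12 to 88 genes were called with 1 sample left out and 125 with percentiles. Over all calls on members, 1014 alternatives kept the direction and call, 45 lost the call and 1 reversed. The causes of these changes, where not given, were not tested.

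Deviations of samples with the same replicate number correlated over 0.1 in 0 of 3 pairs in the E2f4 knockdown, 1 of 9 for Tead1, 3 of 9 for Atf3, 12 of 24 for the passages and 2 of 2 for E2f4 overexpression (0.306). No experiment with at least 3 pairs had all of them over 0.1, and the numbers were not taken as pairs. With a replicate block, edgeR called 2437 genes and 13 members for E2f4 overexpression, 206 and 2 for E2f4 sh1, 347 and 6 for Tead1 sh3, 196 and 6 for sh4, 34 and 0 between the Tead1 hairpins, 723 and 8 for Atf3 sh5, 2078 and 20 for sh6, and 2103 and 18 between the Atf3 hairpins. The block gave 166 promoters at P3 and 15 at P5, and the call on Cdsn was lost. P1 replicate 4 was then alone in its number.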
